A study of Mus musculus with 5 samples.

Results

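The nephron transcription factors described here are Hnf4a, Pax2, Pax8, Maf, Tfap2b, Foxi1, Gata3 and Esrrg, chosen by gene symbol as 8 of the 32285 genes in the matrix. They were followed along marker-gated segments of the mouse nephron, in tubule cells with or without the injury transcript Havcr1, in cycling tubule cells, and across the 5 sequencing libraries. The study collected kidneys of male C57BL/6J mice, aged 6 to 8 weeks, after unilateral ischemia-reperfusion (UIR), in which the left renal pedicle was clamped for 35 minutes and the right kidney left in place. The groups were sham (the same surgery without the clamp) and UIR at days 1, 3, 14 and 28, with 1 sample each in the labels, made from 3 mice. The study's methods speak of more matrices than the 5 libraries found here, and how the mice are spread over the libraries is not given. The labels name no allele, transgene or drug for any group. All libraries were droplet 3′ RNA libraries from enzyme-digested kidney.

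Each barcode ends in a number from 1 to 5 that marks its library. The labels do not tie that number to a condition, so libraries are called 1 to 5, nothing below is a comparison of time points, and no test between conditions was possible. All ratios are descriptions of these libraries. Their 95% intervals are exact and cover the error of counting unique molecular identifiers (UMIs) only, not the spread between mice. Of 70318 droplets called as cells, 57608 passed the filters on genes and mitochondrial counts, 8323 to 18888 per library, with library medians from 4038.0 to 5310.0 UMIs. Only 351 of 57256 barcode sequences occurred in more than 1 library. The labels name the cells as goblet cells. The cells themselves carried kidney markers, and 44301 of the 57608 passed the proximal tubule gate.

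Each nephron segment is thought to be held in its state by a combination of transcription factors. Pax2 and Pax8 are paired-box factors that build the nephron in the embryo and persist in adult tubules, and Hnf4a is the nuclear receptor that drives the proximal tubule programme. Maf is a leucine zipper factor of several tissues, Tfap2b is an AP-2 factor of the distal nephron, Gata3 marks the collecting system, Foxi1 is the factor on which intercalated cells depend, and Esrrg is a nuclear receptor of mitochondrial genes.

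The genes lie on GRCm38 as follows in the GENCODE vM21 annotation. Hnf4a spans chr2:163506808-163572910 on the plus strand, overlapped by its antisense gene Hnf4aos, and Pax8 spans chr2:24420560-24475599 on the minus strand. Gata3 spans chr2:9857078-9890034 on the minus strand, Tfap2b chr1:19208914-19238576 on the plus strand and Esrrg chr1:187608791-188214885 on the plus strand. Pax2 spans chr19:44756045-44837871 on the plus strand, Maf chr8:115682942-115707794 on the minus strand and Foxi1 chr11:34204338-34208089 on the minus strand. Hnf4a, Pax2, Pax8, Maf, Gata3 and Esrrg each overlap at least 1 annotated gene on the other strand.

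The RefSeq table held 13 promoter windows for 7 of the 8 genes and none for Maf. Hnf4a is shown because it has 2 distant starts that share a 3′ end, so that the counts below cannot tell its transcripts apart, and the window of the upstream start is given. Gata3 is shown because its window held the most matches to the AP-2 motif, the motif family of Tfap2b, with which it was found in the same cells. The lines give 250 bases before each start, 5′ to 3′ on the gene's strand (GRCm38.p6), with motif matches in capitals.
Hnf4a, upstream start, chr2:163506607-163506856, plus strand: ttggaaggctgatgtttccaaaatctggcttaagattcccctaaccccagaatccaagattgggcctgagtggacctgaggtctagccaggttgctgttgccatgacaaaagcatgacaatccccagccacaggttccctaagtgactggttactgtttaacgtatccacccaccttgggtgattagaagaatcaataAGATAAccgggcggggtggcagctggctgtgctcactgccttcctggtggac
Gata3, chr2:9878601-9878850, minus strand: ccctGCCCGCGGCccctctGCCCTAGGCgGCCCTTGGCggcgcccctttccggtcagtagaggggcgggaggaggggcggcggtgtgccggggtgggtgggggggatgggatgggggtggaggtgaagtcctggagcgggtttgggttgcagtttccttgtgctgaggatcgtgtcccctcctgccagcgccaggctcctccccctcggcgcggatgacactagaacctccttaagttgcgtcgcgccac
The upstream Hnf4a window holds the GATA letters AGATAA, 52 bases before the start, and 9.99% of all 32851 RefSeq windows hold them on either strand. The Gata3 window holds 3 matches to the AP-2 letters GCCNNNGGC, at 246, 231 and 221 bases before the start, and 13.7% of windows hold at least 1. Among the 13 windows of these 7 genes, 4 held the AP-2 letters and 1 the GATA letters. None held the HNF4 letters CAAAGTCCA, the FOX letters TGTTTAC, the ERR letters TCAAGGTCA or the MAF letters TGCTGAC. Of all windows, 0.384%, 3.17%, 0.387% and 3.81% hold these in turn. A match is a description of the sequence and not evidence of binding.

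Segments were gated per cell on markers that include none of the 8 factors. The proximal tubule was split into S1 (12325 cells), S2 (17392) and S3 (4469). Beyond it, gates held 619 cells of the thick ascending limb (TAL), 310 of the distal convoluted tubule (DCT), 155 of the connecting tubule (CNT), 171 principal cells (PC), 113 intercalated cells (IC) and 121 podocytes. Levels are given as CPM, the UMIs of a gene scaled to the same total of UMIs in every group, and compared within a gene only. Neutrophils (908 cells), which should lack these factors, gave the background from free RNA and from attached cells. The podocyte gate was shallow, with a median of 876 UMIs, and its cells carried 1940 CPM of endothelial and 555 CPM of stromal markers beside 5905 CPM of podocyte markers. Of its 121 cells, 81 came from library 2. The DCT gate carried 4312 CPM of CNT markers and 2725 CPM of TAL markers beside 6939 CPM of DCT markers.

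**Figure D1:**
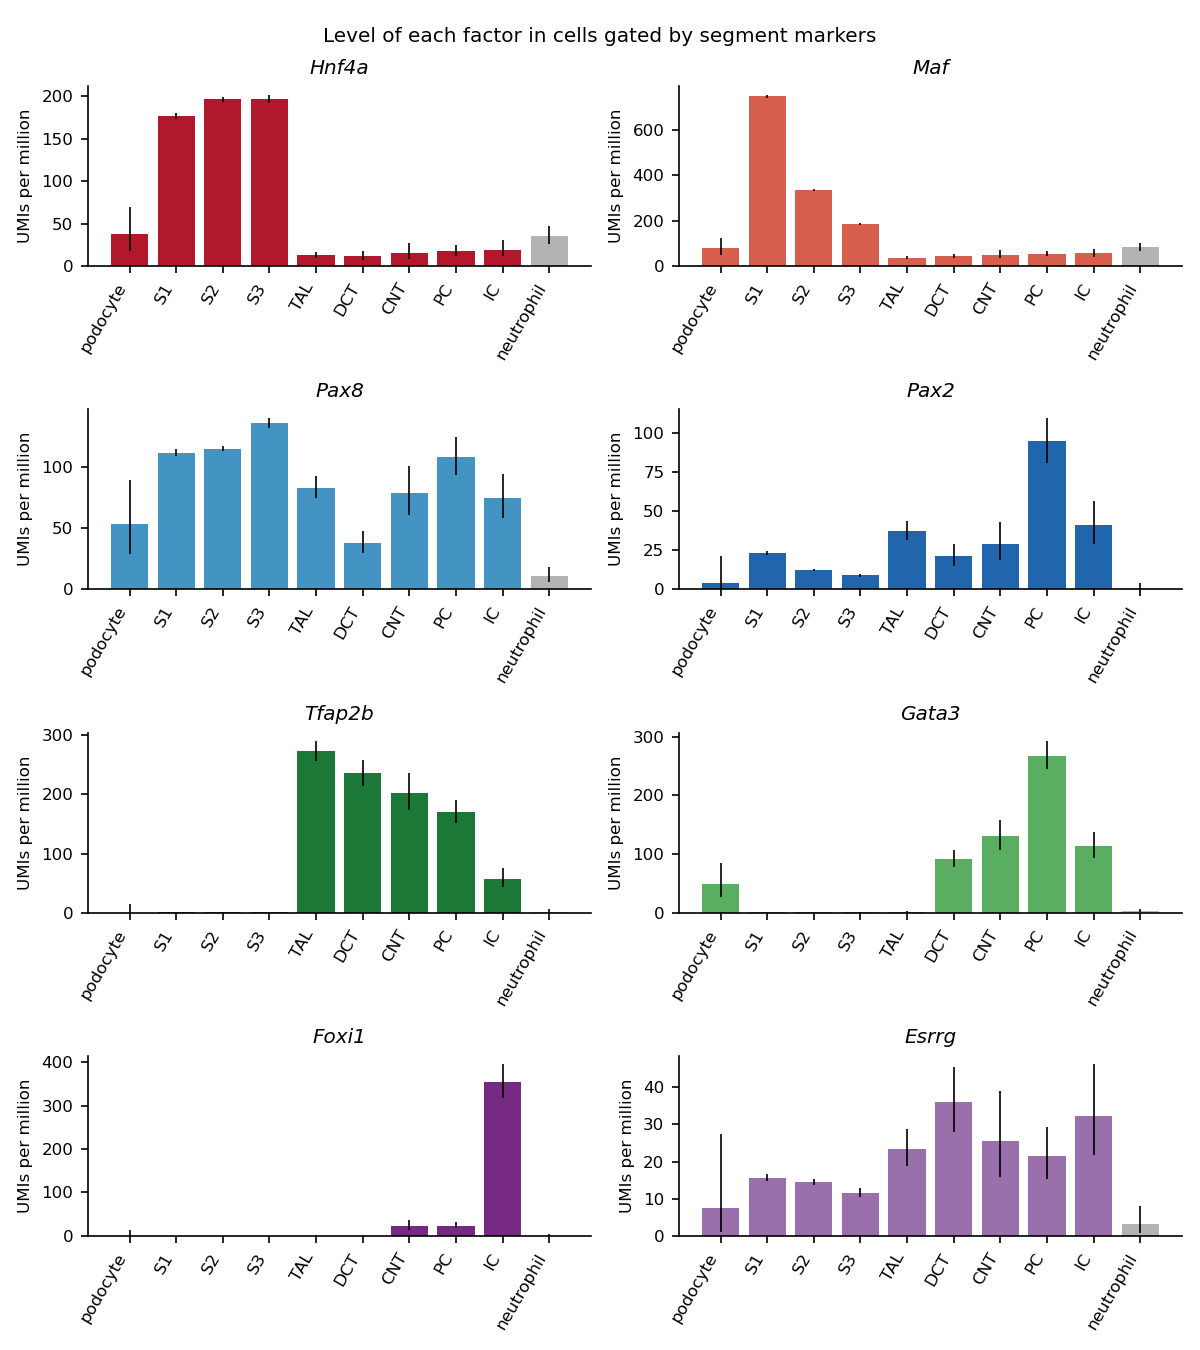
Bars show the CPM of each of the 8 factors in podocytes, S1, S2, S3, TAL, DCT, CNT, PC and IC, with neutrophils in grey, and lines show the 95% counting interval. Hnf4a and Maf stand above neutrophils in the proximal segments, Tfap2b from TAL to IC and Gata3 from DCT to IC, and Foxi1 is highest in IC at 355 CPM.

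Along the nephron, Hnf4a and Maf were proximal, Tfap2b ran from TAL to PC, Gata3 peaked in PC and Foxi1 in IC, and Pax8, Pax2 and Esrrg were found in proximal and distal segments alike. For 4 of the 8 factors (Maf, Pax2, Gata3 and Foxi1) the highest segment was at least 2-fold above the next, a property of 17.7% of the 14573 genes with at least 50 UMIs in these segments. The share among the factors is read against that background only as a description. The 2 highest segments of Hnf4a, S3 and S2, are both parts of the proximal tubule, so this measure does not show its restriction to it.

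Hnf4a was at similar levels along the proximal tubule, at 177 CPM in S1 (174 to 180), 197 in S2 (194 to 199) and 197 in S3 (192 to 202). Beyond the proximal tubule it was at 12.7 CPM in TAL, 12.2 in DCT, 15.8 in CNT, 17.8 in PC and 19.4 in IC. All 5 of these distal levels lay below the 35.7 CPM (26.1 to 47.6) of neutrophils and cannot be told from background. The interval of the podocyte value of 38.0 CPM (18.2 to 70.0) overlapped that of neutrophils. An Hnf4a UMI was seen in 50.7% of S1, 58.0% of S2 and 58.8% of S3 cells, at median depths of 4902.0, 5812.5 and 5962.0 UMIs, against a neutrophil depth of 1316.0. Thinned to 1000 UMIs per cell, the shares were 15.7%, 16.7% and 16.4% against 3.06% of neutrophils. Pooled, S3 and S2 did not differ beyond counting error (197.1 and 196.6 CPM), but in library 1 S2 was above S3 (log2 ratio 0.21, 0.13 to 0.29). S1 was below S2 in libraries 1, 3, 4 and 5 and above it in library 2 (log2 ratios -0.12, -0.18, -0.09, -0.11 and 0.19).

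Maf was graded along the proximal tubule. It was at 749 CPM in S1 (742 to 755), 336 in S2 and 185 in S3, so that S1 was 2.23-fold above S2 and 4.05-fold above S3. The step from S1 to S2 was present in every library, with log2 ratios of 1.26, 1.34, 0.93, 1.05 and 1.17 in libraries 1 to 5. From S2 to S3 the log2 ratios were 1.00, 0.89, 0.73, 0.22 and 0.91, so library 4 had the smallest step. Thinned to 1000 UMIs, 48.6% of S1, 25.8% of S2 and 15.01% of S3 cells held a Maf UMI, against 7.09% of neutrophils. Maf in TAL, DCT, CNT, PC and IC (37.9 to 56.1 CPM) lay below the neutrophil level of 82.9 CPM. Maf was also found in macrophages (161 CPM) and T cells (188 CPM).

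Pax8 was found along the whole tubule. It was at 136 CPM in S3, 115 in S2, 112 in S1 and 108 in PC (93.7 to 124), then 83.1 in TAL, 78.9 in CNT, 74.4 in IC, 53.3 in podocytes and 38.0 in DCT (29.8 to 47.9). The neutrophil level was 10.9 CPM, below every segment. DCT was the lowest tubule segment in this pool, but its libraries were uneven, at 18.2, 19.8, 71.5 and 17.1 CPM in libraries 1, 2, 3 and 5. Droplets taken as empty held 37.8 CPM of Pax8, near the pooled DCT level. They held 44.2, 50.5, 29.0 and 30.5 CPM in those libraries, above DCT in all but library 3. The top place of S3 rested on library 1. Without that library S1 was highest.

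Pax2, the close relative of Pax8, was highest in PC at 94.6 CPM (81.1 to 110), 2.31-fold above IC (41.0). TAL stood at 37.4, CNT at 29.2 and DCT at 21.1 CPM. Within the proximal tubule it was at 23.3 CPM in S1, 12.1 in S2 and 8.93 in S3, all above the 0.775 CPM of neutrophils. Droplets taken as empty held 7.27 CPM of Pax2, near the S3 level. The log2 ratio of S1 over S2 was 1.09, 1.15, 0.56, 0.58 and 1.35 in libraries 1 to 5, the same direction in each. From S2 to S3 the pooled ratio was 0.44, but it was 0.08, 0.19, 0.93, -0.25 and 0.09 in libraries 1 to 5, and every one of these intervals crossed 0. PC stood above S3 for Pax2. For Pax8, S3 was at 223 against 145 CPM in PC of library 1, and at 89.3 against 97.4 CPM in library 2. The PC values rest on 25 and 24 cells, and no interval is given for the order in library 2. In PC, 53 of 171 cells held UMIs of both genes, 26 held Pax2 alone and 35 Pax8 alone. Podocytes held 1 Pax2 UMI.

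Tfap2b was found beyond the proximal tubule. It was at 273 CPM in TAL (257 to 290), 236 in DCT, 203 in CNT, 170 in PC and 57.2 in IC, against 1.02 in S1, 0.871 in S2 and 0.600 in S3. The S1 level was below the 1.55 CPM (0.188 to 5.60) of neutrophils. In TAL the level was 354, 346, 209, 316 and 317 CPM in libraries 1 to 5, lowest in library 3. A Tfap2b UMI was seen in 382 of 619 TAL cells and in 111 of 171 PC.

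Gata3 began 1 step later than Tfap2b. TAL held 3 Gata3 UMIs in 2 of 619 cells (0.779 CPM, 0.161 to 2.28), while DCT stood at 91.4 CPM, CNT at 131, PC at 268 (245 to 293) and IC at 113. PC was 2.04-fold above CNT. The gates did not set DCT, CNT and PC against each other, and the part of carried markers in these steps was not tested. PC in the libraries with at least 20 cells stood at 315, 362, 216 and 391 CPM in libraries 1, 2, 3 and 5, and library 3 was lowest again. The proximal segments held 0.333 to 0.622 CPM, and neutrophils 2.33 CPM. Gata3 is not particular to the tubule, with 88.0 CPM in T cells, where it is a lineage factor, and 236 CPM in the urothelium gate (172 cells). Podocytes held 13 Gata3 UMIs in 9 cells (49.5 CPM, 26.3 to 84.6). In PC, 100 of 171 cells held both Tfap2b and Gata3, 11 held Tfap2b alone and 29 Gata3 alone. In TAL only 1 cell held both.

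Foxi1 was highest in IC. IC held 329 of its UMIs in 75 of 113 cells, or 355 CPM (318 to 395), which was 14.9-fold above PC (23.8) and 15.4-fold above CNT (23.1). TAL, DCT and podocytes held no Foxi1 UMI, which in TAL, by a floor of 3 UMIs, allows a level of up to 0.779 CPM. The proximal segments held 0.0666 to 0.221 CPM. IC with the type B transporter Slc26a4 alone (61 cells) were at 369 CPM, and IC with the type A exchanger Slc4a1 alone (16 cells) at 402 CPM, with overlapping intervals. All 16 PC with a Foxi1 UMI also held Gata3, but so did 113 PC without one, and 42 PC held neither. Of the IC with Foxi1, 40 held Gata3 and 35 did not. The PC gate also carried 470 CPM of type B intercalated markers, against 2268 in IC, and 95.2 CPM of type A markers, against 561. Intercalated markers shared by both types stood at 344 CPM in PC against 6820 in IC. The IC gate carried 1138 CPM of principal cell markers, against 10108 in PC. The part of such carried markers in these values was not tested. Only library 3 had at least 20 IC, so Foxi1 was not compared between libraries.

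Esrrg was found at low levels in the tubule segments. It was at 35.9 CPM in DCT, 32.4 in IC, 25.5 in CNT, 23.4 in TAL and 21.6 in PC, then 15.7 in S1, 14.5 in S2 and 11.6 in S3, and 7.61 in podocytes on 2 UMIs. Neutrophils were at 3.10 CPM (0.845 to 7.94), so the podocyte value is not shown to be above background, and droplets taken as empty held 11.7 CPM, about the S3 level. None of the neighbours from DCT down to PC differed beyond counting error, and DCT itself ranged from 14.3 to 55.4 CPM between libraries. DCT was 2.29-fold above S1.

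The genes whose levels over the 9 segments were most like those of each factor were sought among 12234 genes by Pearson's r of log2(CPM + 1). They were Tmem174, Paqr9 and Tkfc for Hnf4a, Prodh, Tmem106a and Cpeb4 for Maf, Ccdc88c, Inava and Erg28 for Pax8, and Ripk4, Erh and Gipc1 for Pax2. For Tfap2b they were Kcnj1, the potassium channel of TAL and distal cells, with 1110019B22Rik and Wfdc2. For Gata3 they were Pcyox1, Serinc3 and Ube2h, for Foxi1 Hepacam2, Guca2a and Rnasek, and for Esrrg Uqcrh, Ndufa11 and Ldhb, of which Uqcrh and Ndufa11 encode parts of the respiratory chain. The values of r ran from 0.949 to 0.996. The 9 segments share libraries and free RNA, so r is given as a description.

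Other nephron factors, listed by the part of the nephron they are known from, were set beside the 17.7% of all genes that were at least 2-fold above the next segment. Of 12 proximal factors measured, 10 were highest in a proximal segment, and none of these 10 was 2-fold above its next segment. The next segment was mostly another of S1, S2 and S3. This count therefore does not show how far these factors are restricted to the proximal tubule. Their distal levels differed, with Hnf4g at 17.6 CPM in S3 and 0.779 in TAL, and Tfec at 56.0 in S1 and 1.30 in TAL. Cux1 was at 129 CPM in S1 and 127 in TAL. Of 12 loop and distal factors measured, 11 were highest in a distal segment, and 6 (Irx1, Irx2, Sim2, Sall3, Emx1 and Prox1) were 2-fold above the next. Irx2 was at 78.1 CPM in TAL and 10.9 in CNT, and Sall3 at 82.4 CPM in DCT and 19.4 in CNT. All 12 collecting duct factors measured were highest in a distal segment, 5 of them at least 2-fold (Elf5, Elf3, Ehf, Dmrt2 and Hmx2). Elf5 reached 54.1 CPM in PC, and Hmx2 255 CPM in IC against 25.9 in PC. All 3 podocyte factors measured (Wt1, Tcf21 and Foxc2) were at least 2-fold highest in podocytes, with Wt1 at 692 CPM. Of 12 factors of development and injury measured, 3 were at least 2-fold above the next segment. Lhx1, a factor of nephron development, was at 323 CPM in DCT and 63.2 in CNT, Osr2 at 197 CPM in S1 and 34.2 in podocytes, and Sox9 at 156 CPM in DCT and 60.6 in PC.

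By library, the level of each factor in proximal tubule cells was as follows. Hnf4a was at 220, 204, 141, 208 and 192 CPM in libraries 1 to 5, lowest in library 3. Pax8 was at 189, 89.6, 93.1, 137 and 98.6 CPM, with library 1 at 2.11-fold the level of library 2. Pax2 was at 9.87, 13.3, 22.1, 15.4 and 11.9 CPM, with library 3 at 2.24-fold the level of library 1. Maf was at 294, 557, 508, 397 and 380 CPM, lowest in library 1. Esrrg stayed between 11.3 and 17.6 CPM. Of the 5 factors with at least 5 CPM in the proximal tubule, Pax8 and Pax2 were thus 2-fold apart between their highest and lowest libraries, as were 18.0% of 9219 such genes.

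Libraries also differed in which proximal cells they held. S3 had 1201, 1098, 54, 128 and 1988 cells in libraries 1 to 5, so library 3 had almost none. Maf, which is low in S3, was therefore also read within segments. In S1 it was at 648, 1041, 683, 601 and 804 CPM, and in S2 at 270, 411, 359, 291 and 356 CPM, highest in library 2 both times and lowest in libraries 4 and 1. In S3 the order differed again, with library 4 highest and library 1 lowest. Hnf4a in library 3 was lowest within S1 (134 CPM against 180 to 224) and within S2 (152 against 193 to 232). Pax8 in library 1 was highest within S1 (171 CPM), S2 (177) and S3 (223). Pax2 in library 3 was highest within S1 (26.4 CPM) and S2 (17.9), while S3 held 54 cells in that library and is not ranked here. The make-up of free RNA also differed between libraries. In droplets taken as empty, Hnf4a stood at 62.4, 95.8, 109, 202 and 184 CPM in libraries 1 to 5 and Pax8 at 44.2, 50.5, 29.0, 54.4 and 30.5 CPM. Maf stood there at 80.6, 247, 291, 367 and 381 CPM and Pax2 at 0.927, 1.62, 9.07, 8.72 and 7.79 CPM. Maf and Pax2 were lowest in library 1 in droplets and proximal cells alike, and Pax2 was highest in library 3 in both. Hnf4a in library 1 was lowest in the droplets but highest in the proximal cells. Pax8 was highest in library 4 in the droplets and in library 1 in the cells. Maf was highest in library 5 in the droplets and in library 2 in the cells. The part of free RNA in the library differences was not tested.

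**Figure D2:**
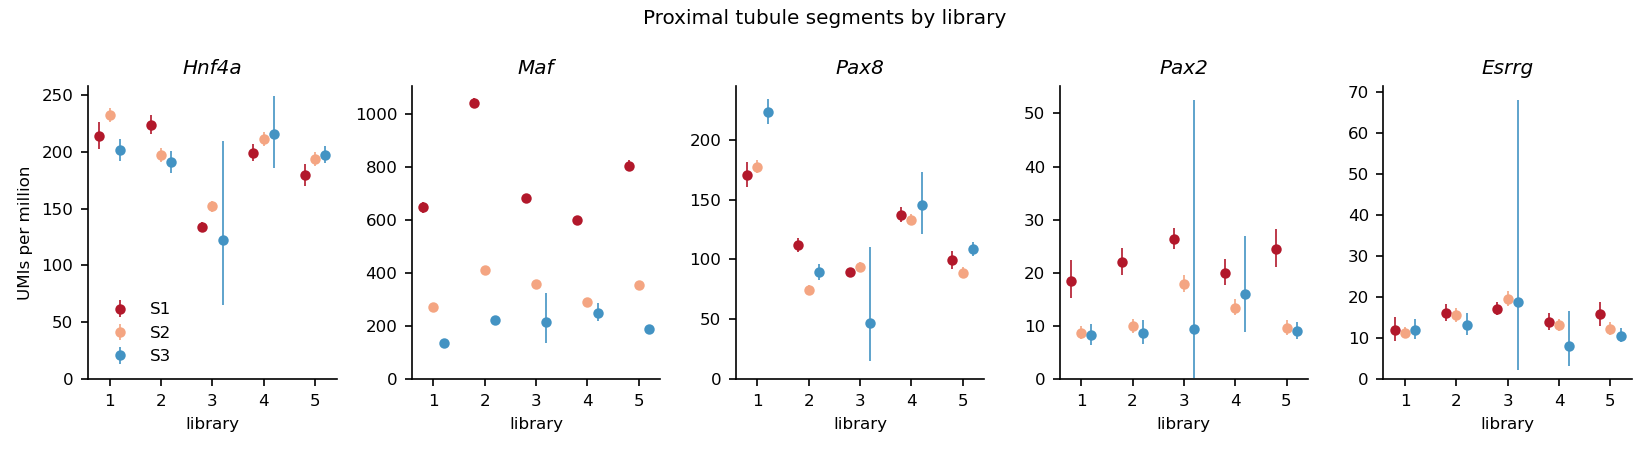
Points show the CPM of Hnf4a, Maf, Pax8, Pax2 and Esrrg in S1, S2 and S3 cells of each of libraries 1 to 5, with 95% counting intervals. Maf is ordered S1, S2, S3 in all 5 libraries, and Pax8 is highest in library 1 in each segment.

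Havcr1 encodes kidney injury molecule 1, which injured proximal cells make. Among proximal tubule cells 3119 held a Havcr1 UMI and 41182 held none. The bearing cells numbered 153, 396, 2200, 335 and 35 in libraries 1 to 5, or 1.96%, 4.69%, 17.9%, 4.55% and 0.416% of proximal cells. Leukocytes gave a background of 1.74% with libraries pooled, from 0.244% in library 1 to 4.48% in library 3, at a lower depth of 1864.0 UMIs against 5179.0. In library 5 their share of 1.37% (1 of 73 leukocytes) was above that of the proximal cells, so its 35 bearing cells are not shown to be above background. In library 3 the leukocyte share of 4.48% stood against 17.9% of proximal cells, without matching depth. How many of its 2200 bearing cells owe their UMI to background was not tested. Bearing cells were deeper than free cells, with medians of 7219.0 and 5023.0 UMIs, and all levels are per UMI.

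None of the 7 measured factors differed by 2-fold between Havcr1-bearing and Havcr1-free proximal cells. Over the 14473 genes with at least 50 UMIs, 2.71% were 2-fold higher and 2.09% 2-fold lower. Foxi1, with 47 UMIs in the proximal tubule, was not measured. Library 3 held 2200 of the 3119 bearing cells and was itself low in Hnf4a and Pax8, so the pooled ratio mixes libraries, and ratios within libraries, or within library and segment, are given beside it.

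Maf was lower in the bearing cells of every library. It stood at 197 CPM in bearing against 297 in free cells of library 1, 438 against 567 in library 2, 384 against 549 in library 3, 274 against 406 in library 4 and 76.4 against 382 in library 5. The log2 ratios were -0.60, -0.37, -0.52, -0.57 and -2.32, and no interval reached 0. Pax2 had ratios below 0 in every library too, but most of its intervals crossed 0. The value of library 5 rests on 35 bearing cells at a share below the leukocyte background, which were also low in the proximal transporter Slc34a1 (1114 against 3526 CPM). Pooled, the Maf ratio was -0.28 (-0.32 to -0.25), and it was -0.33 within library and segment. By segment it was -0.41 in S1, -0.12 in S2 and -0.85 in S3, so it was lower in each of them with libraries pooled. The 8 proximal gate markers had a median log2 ratio of -0.31.

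Pax8 went the other way in 4 libraries. It was 206 CPM in bearing against 188 in free cells of library 1, 107 against 88.0 in library 2, 101 against 90.6 in library 3, 158 against 136 in library 4, and 76.4 against 98.7 in library 5. The log2 ratios were 0.13, 0.28, 0.15, 0.22 and -0.37, with intervals above 0 in libraries 2, 3 and 4 alone. The pooled ratio was -0.05, and that within library and segment 0.18. By segment, with libraries pooled, it was -0.05 in S1, -0.10 in S2 and 0.07 in S3. The ratio was higher in the 4529 proximal cells that carried too few S1, S2 or S3 markers to be split, where Pax8 was at 158 CPM in bearing and 94.0 in free cells (log2 ratio 0.75, 0.58 to 0.92). There the ratio was 1.51, 1.13, 0.59 and 1.08 in libraries 1 to 4.

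Hnf4a differed little within libraries. Pooled, it was at 160 CPM in bearing and 193 in free cells (log2 ratio -0.27). Within libraries 1 to 5 the log2 ratios were -0.10, 0.00, -0.07, -0.03 and -0.48, and within library and segment -0.07. The intervals of libraries 3 (-0.14 to -0.01) and 5 (-0.93 to -0.07) lay below 0. In library 2 both sets of cells stood at 204 CPM. Pax2 had a pooled ratio of 0.19 but ratios of -0.64, -0.04, -0.20, -0.28 and -0.44 within libraries 1 to 5, of which the interval of library 3 alone stayed below 0. Esrrg was at 15.3 against 14.2 CPM (0.10, -0.05 to 0.25), with ratios of -0.06, 0.07, -0.23, 0.18 and -1.07 within libraries 1 to 5 and -0.13 within library and segment. Tfap2b and Gata3 were near background on both sides, at 1.47 against 0.882 CPM and 0.892 against 0.568 CPM. Their pooled log2 ratios of 0.74 and 0.65 turned to -0.30 and -0.18 within library and segment. Without library 3 the Tfap2b ratio was -2.10, past 2-fold the other way from its pooled 0.74. That value rests on 919 bearing cells at a level near background, and no interval was computed for it.

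**Figure D3:**
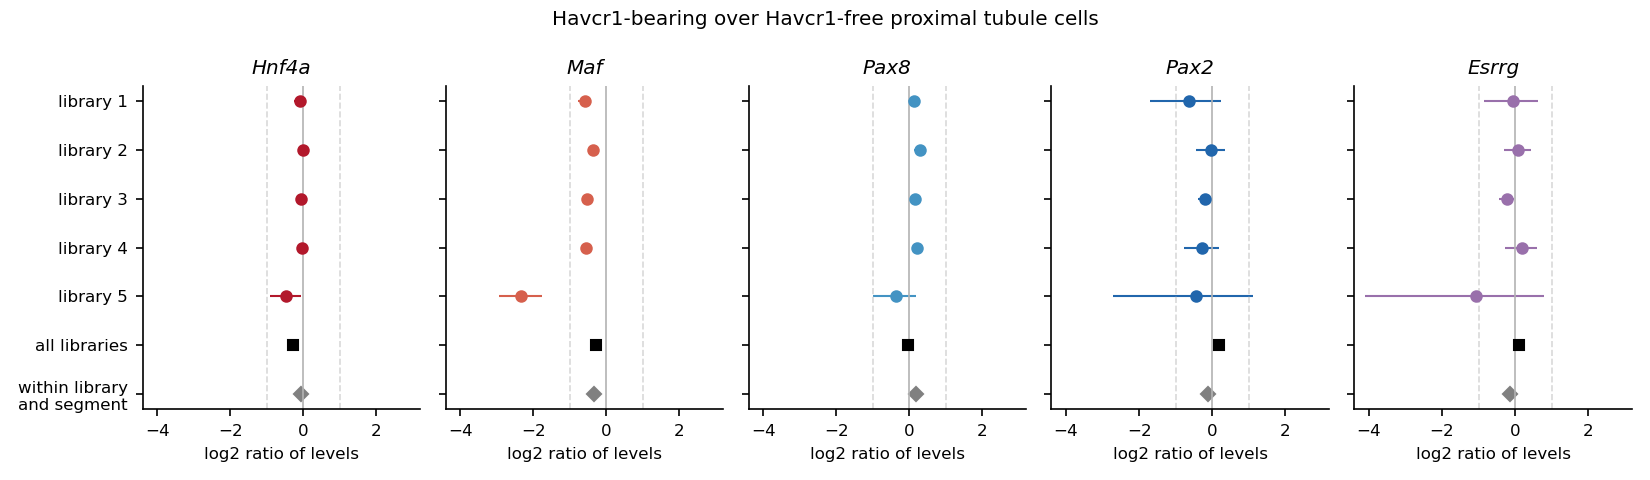
Points show the log2 ratio of CPM in Havcr1-bearing over Havcr1-free proximal tubule cells for Hnf4a, Maf, Pax8, Pax2 and Esrrg in each library, squares all libraries together and diamonds the ratio within library and segment, with 95% counting intervals on points and squares. Maf lies below 0 in all 5 libraries, Pax8 above 0 in libraries 1 to 4, and the dashed lines at 2-fold are passed only in library 5.

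In the same comparison, 3 of 11 measured factors of development and injury were at least 2-fold higher, beside 2.71% of all genes. Sox9, a factor of injured and progenitor tubule cells, was at 38.4 against 7.004 CPM (log2 ratio 2.45), Atf3, a stress factor, at 490 against 196 CPM (1.32) and Sox4 at 32.6 against 15.3 CPM (1.10). Only pooled ratios were computed for these factors and for those named below in this comparison. The other 8 were under 2-fold, from Osr2 at -0.40 and Lhx1 at -0.22 to Myc at 0.89. Of 12 proximal factors none was 2-fold apart, with Nr1h4 at -0.47. Of 9 collecting duct factors, Elf3 (1.04) and Grhl1 (1.25) were higher, the latter at 0.775 against 0.327 CPM. None of 8 loop and distal factors was 2-fold apart.

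A gate on proximal markers cannot hold a cell that has lost them. Epithelial cells that passed no gate, with at least 2 of 6 general tubule markers, numbered 2141, of which 1636 were in library 3 and 459 held Havcr1. Against Havcr1-free proximal cells these 459 stood at 69.3 against 193 CPM for Hnf4a (log2 ratio -1.48, -1.63 to -1.33) and at 225 against 444 for Maf (-0.98). Pax8 stood at 158 against 119 CPM (0.42) and Pax2 at 27.5 against 14.8 (0.89). Tfap2b was at 26.0 against 0.882 CPM (4.88) and Gata3 at 6.97 against 0.568 (3.62). Of the 7 measured factors 2 were thus at least 2-fold higher and 1 lower. Among 14414 genes 17.4% were higher and 13.1% lower, so such differences were common in these cells. Hnf4a was lower in each library with at least 20 such cells, at -1.45, -1.83 and -1.04 in libraries 1 to 3. Pax8 was higher in each, at 1.10, 1.28 and 0.41. The gate markers themselves had a median of -2.30, which the selection of these cells fixes. The 2 sets compared differ both in the gate and in Havcr1. All ungated epithelial cells, with and without Havcr1, held Hnf4a at 43.0 to 67.7 CPM across the 5 libraries. The ratios of the 459 cells do not separate Havcr1 from the failed gate.

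These cells were not of 1 kind. By cluster, 270 of the 459 sat with proximal cells, 135 with TAL cells and 37 with DCT cells. Those with proximal cells held Hnf4a at 95.3 CPM, Maf at 311, Pax8 at 184 and Tfap2b at 0.321 CPM. Those with TAL cells held Hnf4a at 30.04, Pax8 at 132 and Tfap2b at 55.2 CPM, and those with DCT cells held Tfap2b at 123 and Gata3 at 33.9 CPM. Gata3 had no UMI in the cells with proximal ones and 2.45 CPM in those with TAL cells, and 5 cells that sat with urothelium held 15 of its UMIs, more than the 11 in the cells with DCT cells. The lower Hnf4a and higher Pax8 were also present in those that clustered with proximal ones. Other factors were read only in all 459 cells together, which mix these clusters. Of 12 proximal factors 7 were at least 2-fold lower (among them Hnf4g -1.59, Ppara -1.29, Esrra -1.002, Nr1h4 -1.40, Mlxipl -1.36 and Tfec -1.04), and none was higher. Of 12 factors of development and injury 7 were at least 2-fold higher and 1 (Lhx1) lower, with Sox9 at 144 against 7.004 CPM and Sox4 at 234 against 15.3 CPM. Higher by as much were 4 of 8 loop and distal and 6 of 9 collecting duct factors. Over all 14414 genes, 17.4% were higher and 13.1% lower. These counts were not made within the 270 cells that sat with proximal cells, and the part of the distal cells in them was not tested.

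To follow the factors along the proximal marker level, proximal and ungated epithelial cells were ordered in 5 bins by their proximal marker UMIs per 10000, from under 25 to 150 or more. In Havcr1-bearing cells Hnf4a was at 43.7, 96.5, 138, 183 and 220 CPM from the lowest bin to the highest, higher in each bin than in the one before. Pax8 ran the opposite way at 168, 149, 119, 108 and 99.2 CPM. Pax2 was at 33.2, 22.4, 18.4, 15.4 and 10.4 CPM, but in libraries 1, 2, 4 and 5 together it was at 34.0, 8.93, 12.9, 12.5 and 8.62 CPM, with no order above the lowest bin. Maf differed from both, at 107 CPM in the lowest bin and 334, 362, 371 and 374 CPM in the others. Tfap2b was at 41.5 CPM in the lowest bin, 8.43 in the next and 2.11 or less above. The marker UMIs and the factors are read from the same cells, and the lowest bin also holds distal cells. The bins were not split by segment. The marker level itself differed between segments, at 11426 CPM in S1, 14433 in S2 and 13248 in S3, and the part of segment make-up was not tested.

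Havcr1-free cells showed the same order for Hnf4a (19.5, 113, 156, 202 and 204 CPM) and Pax2 (38.3, 26.2, 22.2, 15.1 and 10.5 CPM), and Pax8 was again highest in the lowest bins (165, 148, 113, 130 and 110 CPM). Within a bin of marker level, not split by segment, Maf was lower in Havcr1-bearing than in Havcr1-free cells in the middle 3 bins. It was there at 334 against 376, 362 against 506 and 371 against 453 CPM. In the highest bin the intervals overlapped (374 against 404 CPM). In the third bin it was at 385 against 558 CPM in library 3 and at 267 against 410 CPM in the other libraries. In library 3 alone, bearing cells had Hnf4a at 36.8, 96.8, 128, 159 and 142 CPM and Pax8 at 133, 108, 102, 96.2 and 137 CPM, the highest bin there holding 32 cells. In the other 4 libraries together, Hnf4a was at 56.4, 95.3, 179, 207 and 227 CPM and Pax8 at 233, 317, 193, 120 and 95.9 CPM.

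**Figure D4:**
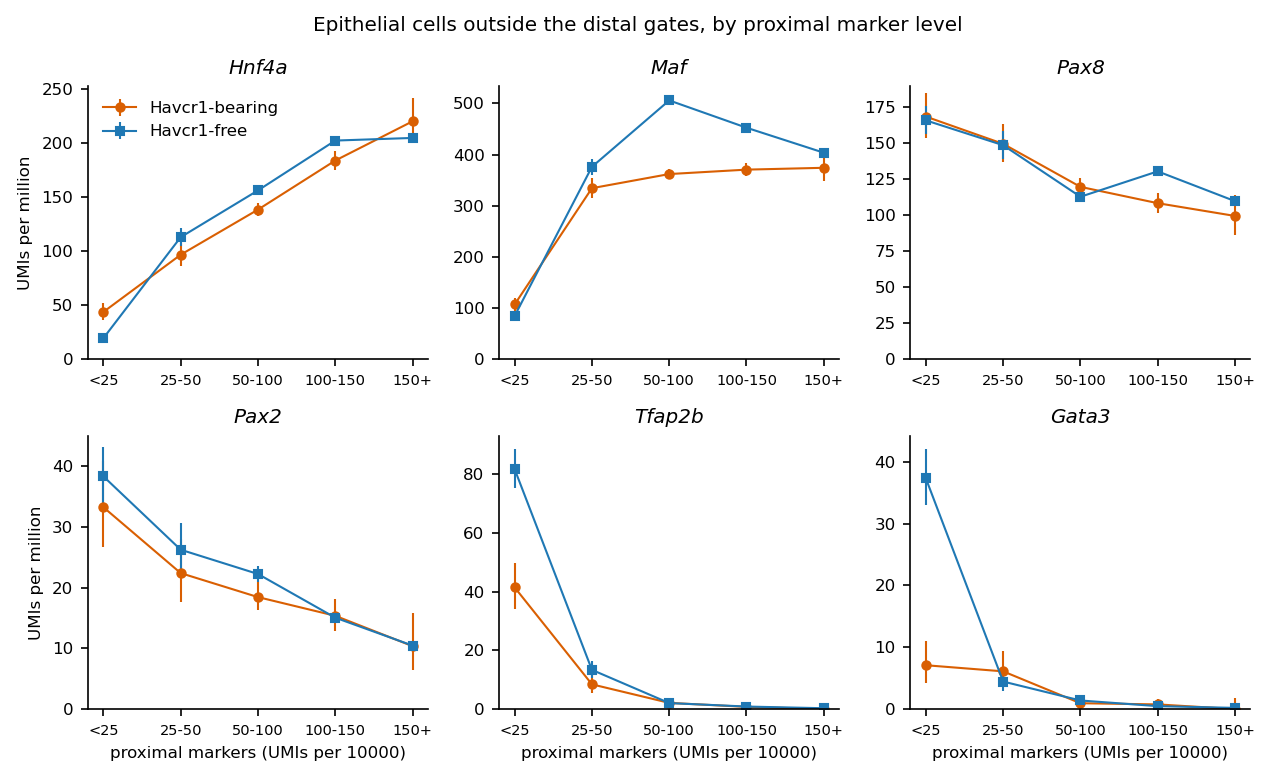
Lines show the CPM of Hnf4a, Maf, Pax8, Pax2, Tfap2b and Gata3 in 5 bins of proximal marker UMIs per 10000, for Havcr1-bearing and Havcr1-free cells of the proximal and ungated epithelial sets, with 95% counting intervals. With libraries pooled, Hnf4a goes up with the markers in Havcr1-bearing cells from 43.7 to 220 CPM while Pax8 goes down from 168 to 99.2 CPM.

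Cycling cells were proximal cells with a UMI in at least 2 of 8 cell cycle markers. They numbered 806 (43, 44, 487, 205 and 27 in libraries 1 to 5) against 41669 with none of these markers, and 110 proximal cells were both cycling and Havcr1-bearing. None of the 7 measured factors was 2-fold apart. Of 14384 genes, 13.3% were 2-fold higher and 4.35% 2-fold lower. Cycling cells were also deeper, at a median of 7836.0 against 5089.0 UMIs.

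Pax2 was higher in the cycling cells of each library, but within counting error in most of them. It was at 22.6 CPM in cycling and 14.7 in non-cycling cells (log2 ratio 0.62, 0.39 to 0.85). Within libraries 1 to 5 the ratios were 0.35, 0.85, 0.17, 0.32 and 1.33, of which that of library 5 alone had an interval above 0, on 27 cells. Within library and segment the ratio was 0.21. The 8 proximal gate markers had a median log2 ratio of -0.64 in cycling cells, with 1 of them at least 2-fold lower, and their part in the Pax2 ratio was not tested. S1, where Pax2 was above S2 and S3, held 362 of the 806 cycling cells.

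The others differed little. Hnf4a was at 164 against 191 CPM pooled (-0.22) and at -0.15, -0.16, -0.08, 0.05 and -0.28 within libraries, with every interval across 0. Pax8 was at 105 against 119 CPM (-0.19), and only the interval of library 4 (-0.24) stayed below 0. Maf was at 480 against 433 CPM (0.15), with ratios of 0.15, 0.19, 0.13, -0.27 and 0.22. The intervals of libraries 2 and 3 lay above 0 and that of library 4 below. It was lower within S1 (-0.18) and within S2 (-0.31). Within library and segment, Hnf4a was at -0.03, Pax8 at -0.08, Maf at -0.08 and Esrrg at -0.09. Gata3 stood at 0.976 against 0.585 CPM (0.74), and without library 3 its ratio of 1.72 passed 2-fold. None of 12 proximal factors and none of 11 factors of development and injury was 2-fold apart. Among the others Irx1 and Irx3, which mark S3 or S2 as well as TAL, were lower in cycling cells (log2 ratios -2.64 and -1.24), and Irx2 was at 0.558 against 1.12 CPM (-1.01, -2.89 to 0.37). Mecom was at 2.37 against 1.01 CPM (1.23), and Grhl2 at 0.697 against 0.203 CPM (1.78). Both cycling levels lay below those of neutrophils, at 3.88 CPM for Mecom and 0.775 CPM for Grhl2. Sox9 was not apart, at 9.76 against 10.1 CPM. For all these listed factors only the ratio with libraries and segments pooled was computed. Library 3, with 487 of the 806 cycling cells, held 54 S3 cells. Irx1 was at 31.4 CPM in S3 against 0.294 in S1, and Irx3 at 45.1 CPM in S2 against 4.36 in S1. The part of segment and library make-up in these ratios was not tested.

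**Figure D5:**
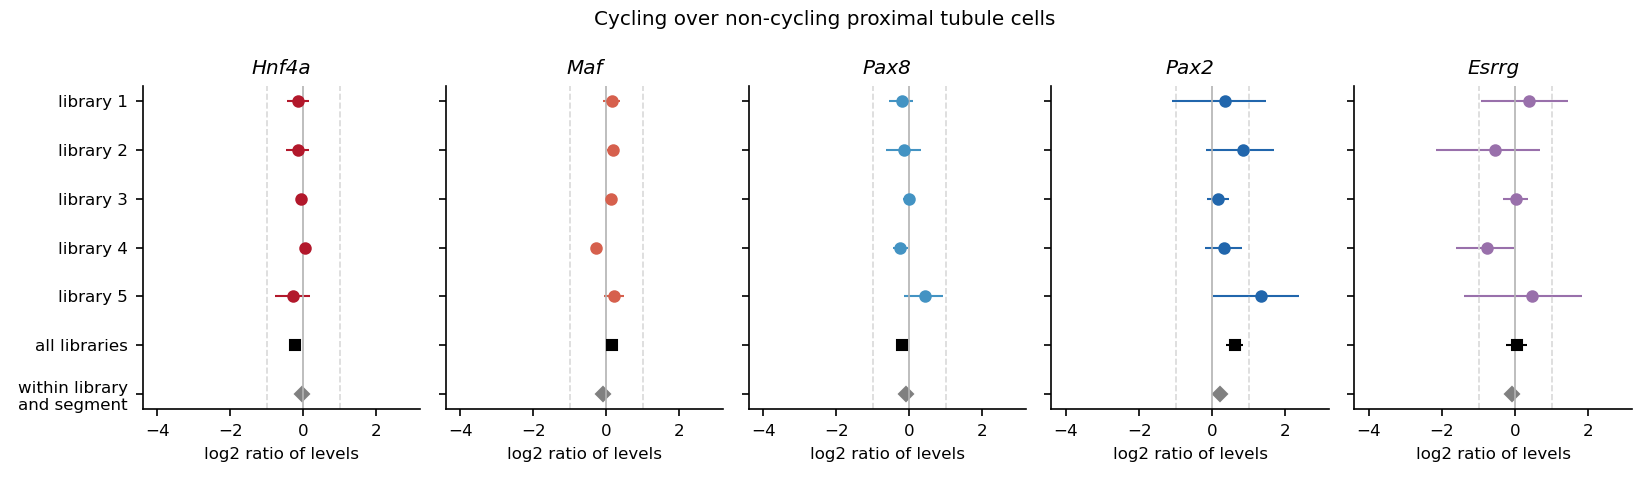
Points show the log2 ratio of CPM in cycling over non-cycling proximal tubule cells for Hnf4a, Maf, Pax8, Pax2 and Esrrg in each library, squares all libraries together and diamonds the ratio within library and segment, with 95% counting intervals on points and squares. Pax2 lies above 0 in all 5 libraries and its pooled square at 0.62, while its diamond lies at 0.21.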

How the data were processed

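Kidney cells from 5 samples were sequenced as droplet 3′ libraries. Per the labels and the study's methods, the authors aligned the reads with Cell Ranger 6.0 to mm10 and deposited 1 matrix of raw UMI counts over all barcodes, with no cells called. The numbers at the barcode ends were not matched to samples, so all cells form 1 pooled sample and no test between conditions was made.

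Cells were called per library in 2 steps. Barcodes at or above a depth cut, from 2518 to 3656 UMIs by library, were taken as cells directly. Those below it, from 500 UMIs up (661 in library 3), were tested against the barcodes ranked 45000 to 90000. At most 20000 were tested, with 10000 simulations and a false discovery rate of 0.01. Called cells were kept with at least 200 genes and at most 25% mitochondrial counts. Segments were gated by marker scores of at least 0.15 with at least 2 markers detected. The scoring was set after the score ranges were seen. Cells in which another class scored above 0.5 of the top score were left out as mixed. DCT, CNT and PC were not set against each other in this step. No doublet caller was applied in the main analysis. Cells that passed no gate but held at least 2 of 6 epithelial markers were kept as ungated epithelial cells. A cell bore Havcr1 with 1 UMI or more and was cycling with at least 2 of 8 markers. UMIs were summed per group as CPM with exact 95% Poisson intervals, ratios with exact conditional binomial intervals, and a ratio was called at 2-fold. Genes with fewer than 50 UMIs in a comparison were not measured. Libraries entered with at least 20 cells. Ratios within library and segment were chosen after seeing the data.

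The 8 factors, the gene lists and the rule for named genes (the 8, listed nephron factors at 2-fold, and the 3 genes most like each factor among those with at least 200 UMIs) were chosen with earlier results of these data known. Some listed factors and a motif are counted or were searched but not reported here by name. The ratio with its interval and the ratio within strata were tested on counts simulated with counting error only. Cell calling, gating and the other steps were not tested on simulated data. Alternatives changed the cell filters, gates, thresholds, weighting and depth, and left out each library in turn. Python 3.11.15, NumPy 2.4.6, SciPy 1.17.1, pandas 2.3.3, Scanpy 1.11.5, leidenalg 0.10.2 and matplotlib 3.10.9 were used.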

Additional observations from a re-analysis of the deposited data

How the results depend on the processing

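No paired analysis was possible because each group had 1 sample and libraries were not tied to groups. Of 50 counts over the factors 39 stayed within 1.5 times their value and 11 moved. Of the values of single factors 317 stayed and 149 moved. No ratio of 2-fold or more changed sign, but smaller ones did, among them Tfap2b for Havcr1 (0.74 to -0.80 with the mean of library CPM) and for cycling (0.62 to -0.87 with all tubule cells), and Gata3 for Havcr1 (0.65 to -0.54 with all tubule cells). The number of factors 2-fold apart between proximal libraries went from 2 to 1 at no more than 10% mitochondrial counts. For Havcr1 the count of 0 became 1 with all tubule cells (Foxi1), with at least 3 Havcr1 UMIs (Tfap2b) and with cells thinned to 1000 UMIs (Tfap2b), and ran from 0 to 1 when a library was left out, with Tfap2b at -2.10 without library 3 against 0.74. For cycling the count of 0 became 2 at no more than 10% mitochondrial counts (Tfap2b and Gata3), 1 with all tubule cells (Gata3), 1 with segments from clusters (Tfap2b) and 1 without the highest Scrublet scores (Gata3), and ran from 0 to 1 when a library was left out (Gata3 at 1.72 without library 3 against 0.74). Tfap2b and Gata3 lie near 1 CPM in proximal cells, and no intervals were computed for these alternatives. With segments from clusters, in which PC, IC and CNT cells fell together, 5 of 8 factors kept their highest segment, and 6 to 8 did when a library was left out. The cause of these changes was not tested.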

Other observations

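Pax8 was also found outside the tubule gates, in genes and cells looked at after their values were seen. The stromal gate (191 cells) held Pax8 at 209 CPM (189 to 231), in 82 cells. These 82 cells were deeper than the other 109, at medians of 13012.0 and 2688.0 UMIs, and 55 of them came from library 1 and 24 from library 2. They held Pax2 at 38.3 against 4.27 CPM, the cadherin Cdh6 at 584 against 96.1 CPM, the claudin Cldn1 at 178 against 27.8 CPM and Wt1 at 128 against 25.6 CPM. The tubule genes Lrp2 (41.2 against 72.6 CPM) and Krt8 (26.3 against 27.8 CPM) were not higher. Gata3 had no UMI in the 82 cells, against 30 UMIs (64.1 CPM) in the other 109. They held less of the stromal genes Col1a1 (198 against 2119 CPM) and Dcn (148 against 1653 CPM), and renin transcript Ren1 stood at 0.710 against 2369 CPM. Of the contractile genes, Tagln was at 8450 against 4881 CPM and Acta2 at 2987 against 6118 CPM. Because the cells were split by a Pax8 UMI at unequal depth, these values are a description, and what the cells are was not tested.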
